A study of Mus musculus with 18 samples.

Results

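The 10 genes described here were Cdkn1a, Mdm2, Gadd45a, Gadd45b, Gadd45g, Ccng1, Bax, Bbc3, Trp53inp1 and Phlda3, a set of p53 and growth arrest targets chosen by gene symbol, out of 37303 genes in the expression table. All 10 symbols were found, and each had an estimated value in every group. Livers were taken from 18 mice in 6 groups of 3, in which intact mice (WT), mice with both copies of Gcn2 deleted (Gcn2-/-) and mice with both copies of Atf4 deleted (Atf4-/-) were each given phosphate buffered saline (PBS) or L-asparaginase (Elspar; ASNase), an enzyme drug that breaks down circulating asparagine. Mice received 8 injections into the abdomen, 1 a day, at 3 IU of ASNase per gram body weight or the same volume of PBS, and livers were collected 7.5 hours after the last injection. All mice were on the C57BL/6J background. Age was given as 8 to 12 weeks in the growth protocol and as 8 to 16 weeks in the sample characteristics. Each group held both sexes. WT PBS and both Gcn2-/- groups had 1 male and 2 females, and WT ASNase and both Atf4-/- groups had 2 males and 1 female. The mix of sexes thus differed within some comparisons, where its effect cannot be told apart from that of strain or treatment. The deletions were carried in the whole body, so effects of the loss in liver cells and in other tissues cannot be told apart. Polyadenylated RNA was sequenced, and levels are given as FPKM, a fragment count scaled to transcript length and to the number of mapped reads, a unit that corrects for transcript length and so allows levels of different genes to be set side by side.

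p53 is a transcription factor that is stabilized by DNA damage, ribosomal stress and other insults, and it switches on genes that halt the cell cycle, repair damage or start apoptosis. Cdkn1a encodes p21, an inhibitor of cyclin-dependent kinases and the best known p53 target for arrest. Mdm2 encodes the ubiquitin ligase that degrades p53 and is itself a target, which closes a feedback loop. Bax and Bbc3 (PUMA) encode proapoptotic members of the BCL2 family. The GADD45 genes encode small proteins, induced by growth arrest and DNA damage, that bind cell cycle and stress kinase proteins, and they also answer to signals other than p53. Cdkn1a is likewise induced by several p53-independent stimuli. GCN2 is the kinase that senses uncharged tRNA during amino acid shortage and phosphorylates eIF2, and ATF4 is the transcription factor whose synthesis rises when eIF2 is phosphorylated.

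The table held 1 value for each gene and group, estimated by Cuffdiff from the 3 libraries together, with a lower and an upper bound. Values of single mice were not part of the table, so no difference below has a replicate check and no p-value is given. Among genes above 3 FPKM the bounds lay at a median distance of 51.3% to 54.2% of the value in the 6 groups, which sets how small a difference could be resolved. A gene was eligible for a comparison when both values were estimated and above 0 and at least 1 exceeded 3 FPKM. It was called, and is said to have risen or fallen, when in addition log2(FPKM + 0.1) differed by more than 1.5 and the bounds of both values did not overlap. Log2 differences are on the log2(FPKM + 0.1) scale, which understates changes of genes with low values, and the error after the ± sign combines the interval widths of both values. Folds are ratios of the FPKM values.

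Before the results on these genes, the libraries need a short account. Atf4 itself stood at 32.3 (bounds 19.1 to 45.5) and 29.3 FPKM (17.3 to 41.2) in the Atf4-/- PBS and ASNase groups. It stood at 50.4 to 68.1 in the other 4 groups, with overlapping bounds. Eif2ak4, the gene encoding GCN2, lay between 2.19 and 3.14 FPKM in all 6 groups. The Gcn2 deletion takes out an exon and not the whole gene, so this gene level does not check the libraries labelled Gcn2-/-. From plots of read density, the paper reported loss of that exon in Gcn2-/- mice and loss of Atf4 in Atf4-/- mice. It also measured Atf4 by RT-qPCR. Gene-level values do not show which part of Atf4 the remaining reads came from. Of 6 hepatocyte markers, Alb was not estimated in any group and the other 5 were all detected, with a summed level of 14293 to 18748 FPKM in both WT groups and both knockout PBS groups, 8130 in Gcn2-/- ASNase and 5816 in Atf4-/- ASNase. Skeletal muscle markers (10 genes) summed to 849 and 1219 FPKM in WT PBS and WT ASNase, 68.6 and 154 in the Atf4-/- groups and 5.78 and 8.87 in the Gcn2-/- groups. Lung markers (4 genes) summed to 132 FPKM in WT PBS and to 2.05 or less elsewhere. Pancreatic acinar markers (5 genes) summed to 115 FPKM in Atf4-/- ASNase and to between 4.92 and 29.8 in the other groups. B cell markers (5 genes) summed to 1.16 and 1.03 FPKM in the ASNase-treated knockouts against 5.78 to 15.6 elsewhere. Kupffer and myeloid markers (5 of 6 found) summed to 121 to 324 FPKM and neutrophil markers (6 genes) to 1.60 to 15.4 FPKM, and both were lowest in an ASNase-treated knockout. In whole liver, fewer cells of a type and less RNA per cell cannot be told apart.

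Under PBS in WT liver, the 10 genes had low to moderate levels per transcript length, from 1.72 to 19.9 FPKM. Bax (19.9 FPKM), Trp53inp1 (17.5), Ccng1 (16.6), Mdm2 (11.1) and Gadd45g (9.49) formed the upper part, Bbc3 stood at 5.20, and Phlda3 (2.21), Cdkn1a (2.13), Gadd45a (1.79) and Gadd45b (1.72) were lowest. After ASNase in Atf4-/- liver, by contrast, Trp53inp1 (109.7 FPKM), Gadd45g (89.7), Gadd45a (60.0), Cdkn1a (45.2) and Bax (44.5) were the highest of the 10.

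**Figure D1:**
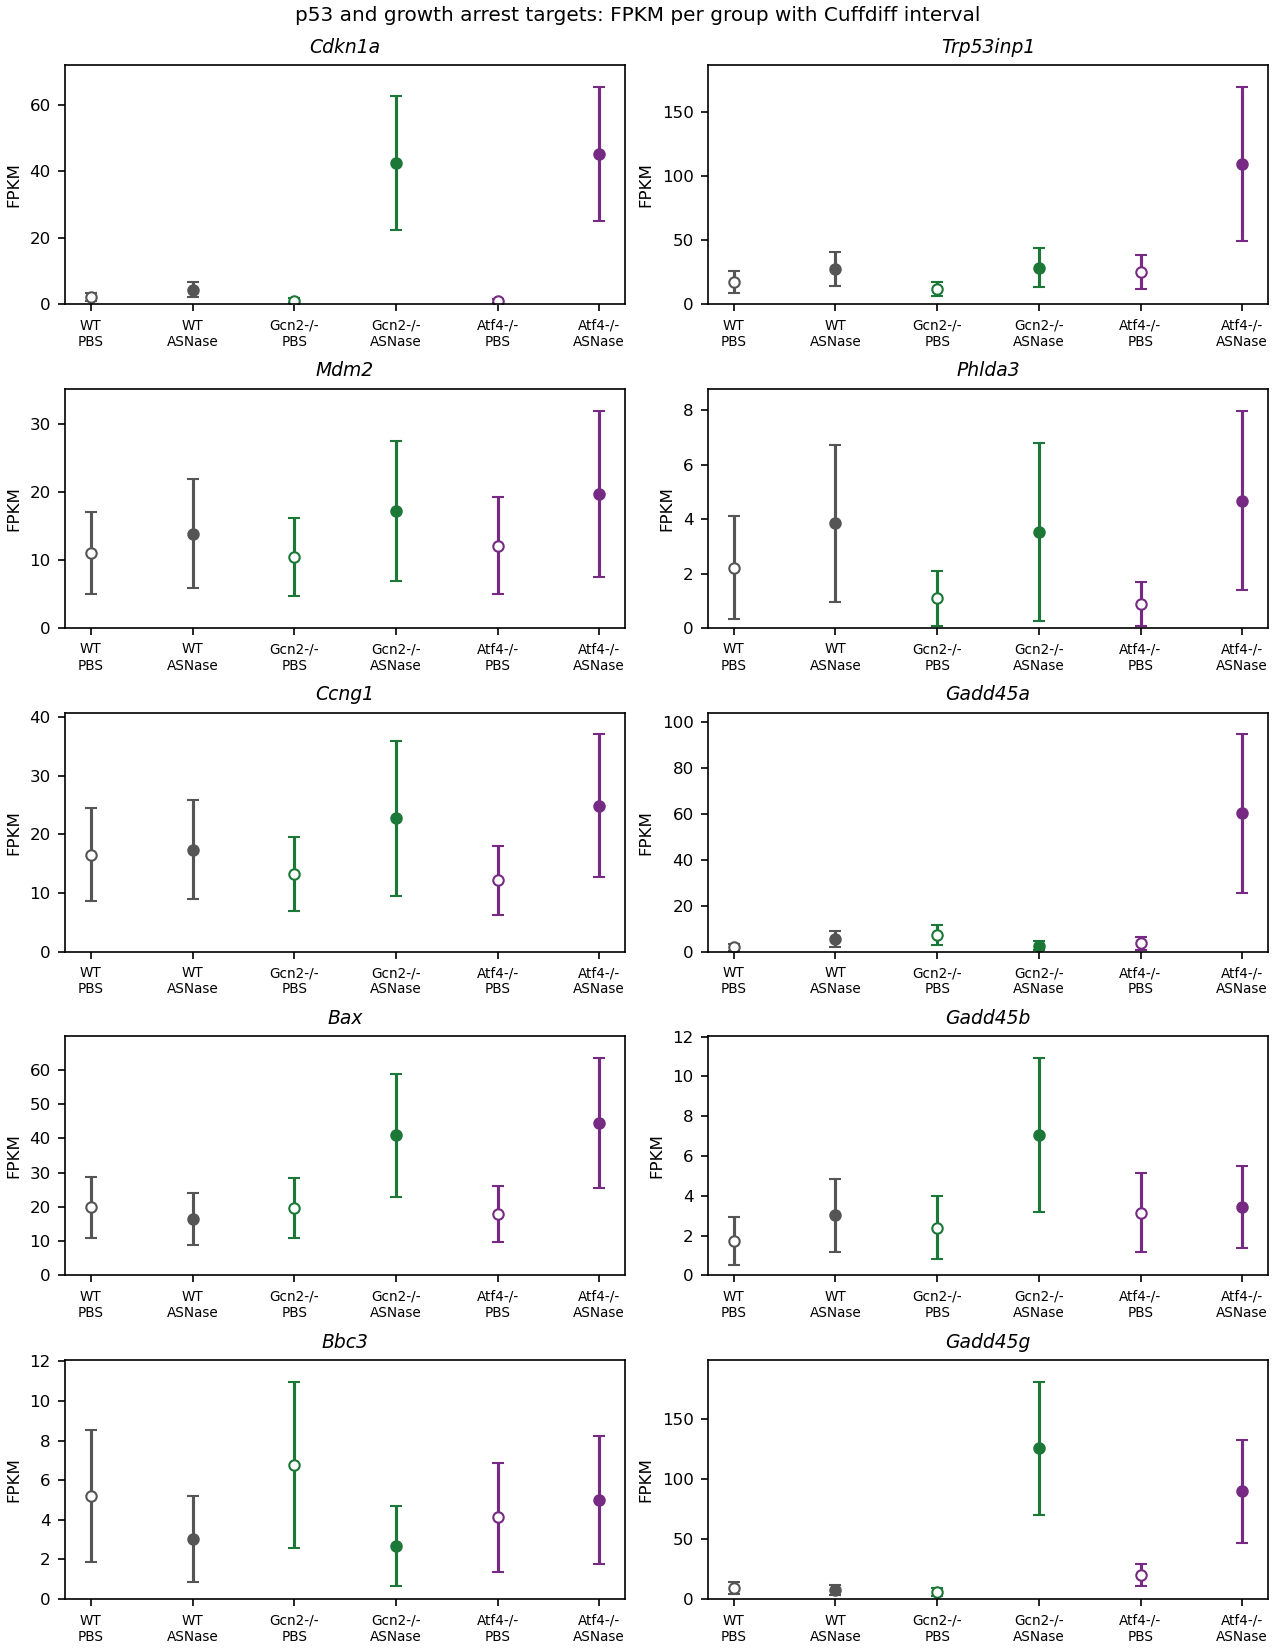
FPKM of each of the 10 genes (vertical axis, linear from 0, 1 panel per gene) in the 6 groups, with open circles for PBS, filled circles for ASNase and bars from the lower to the upper Cuffdiff bound. Cdkn1a and Gadd45g stood apart in both ASNase-treated knockouts, Trp53inp1 and Gadd45a in Atf4-/- ASNase, and the bars of neighbouring levels of the other 6 genes overlapped throughout.

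In WT liver, ASNase moved none of the 10 genes past the call, whereas it raised 2 in Gcn2-/- and 4 in Atf4-/- liver. Cdkn1a and Gadd45g rose in both knockouts, and Gadd45a and Trp53inp1 rose in Atf4-/-. All 10 genes were eligible in each of these 3 comparisons, and none fell. Of all eligible genes, 0.76% were called higher and 0.121% lower in WT (of 9084), 1.56% higher and 2.13% lower in Gcn2-/- (of 9218), and 2.74% higher and 4.63% lower in Atf4-/- (of 9485). In WT the 10 genes had a median log2 difference of 0.48, beside -0.01 over all eligible genes. The corresponding medians were 1.16 beside 0.02 for Gcn2-/-, and 1.71 beside 0.08 for Atf4-/-. The ASNase value was the higher of the pair for 7 of 10 genes in WT, 8 in Gcn2-/- and 10 in Atf4-/-. Because the 10 genes were chosen with earlier results of these data known, these counts and medians are a description and no test.

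**Figure D2:**
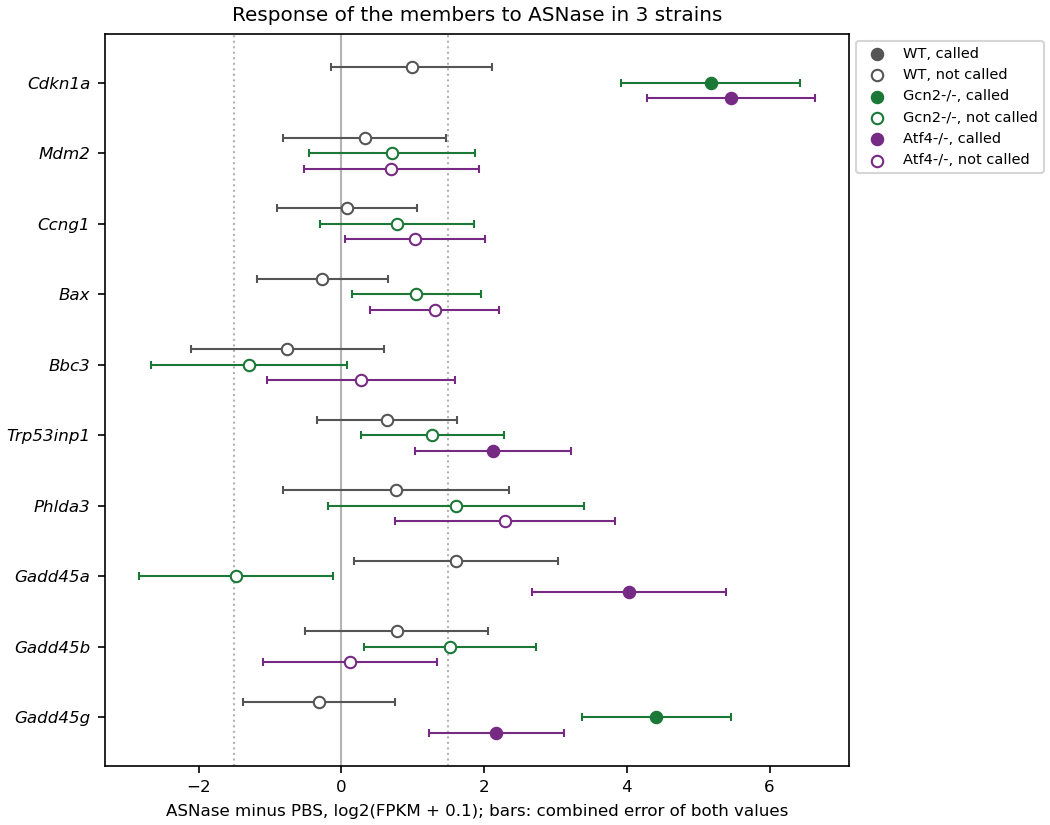
ASNase minus PBS on the log2(FPKM + 0.1) scale (horizontal axis) for each gene in WT (grey), Gcn2-/- (green) and Atf4-/- (purple), with the combined error of both values as bars, filled points for called differences and dotted lines at the limits of 1.5. No WT point is filled, Cdkn1a reached 5.17 and 5.46 in the knockouts, and Gadd45a stood at -1.48 in Gcn2-/- and 4.03 in Atf4-/-.

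Cdkn1a (chr17:29090976-29100727, plus strand, GRCm38), the p21 gene, gave the largest log2 difference of the set in both knockouts. Its level was 2.13 FPKM (bounds 0.810 to 3.44) in WT PBS, 4.30 (2.04 to 6.57) in WT ASNase, 1.08 (0.226 to 1.94) in Gcn2-/- PBS, 42.6 (22.3 to 62.8) in Gcn2-/- ASNase, 0.928 (0.224 to 1.63) in Atf4-/- PBS and 45.2 (25.1 to 65.4) in Atf4-/- ASNase. The 4 lower groups overlapped in order from Atf4-/- PBS through Gcn2-/- PBS and WT PBS to WT ASNase, and both ASNase-treated knockouts lay above all of them and overlapped each other. In Gcn2-/- the rise was 39.3-fold, or 5.17 ± 1.25 on the log2 scale, and the bounds nearest each other still differed 11.5-fold. It ranked as number 4 of 9218 eligible genes. In Atf4-/- the rise was 48.7-fold, 5.46 ± 1.18 on the log2 scale and 15.4-fold between the nearest bounds, and it ranked as number 24 of 9485. In WT the difference was 0.98 ± 1.13, inside its error.

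A promoter window of Cdkn1a is printed because it was the only window among these genes to hold an exact p53 response element. The window covers 250 bases before to 50 after a RefSeq start, and such windows were found for 9 of the 10 genes (12 windows, GRCm38.p6), with none for Trp53inp1. The element searched was a pair of 10-base units of the p53 consensus, named here only, with a spacer of 0 to 13 bases, on both strands. An exact match occurred in 0.0731% of all 32851 promoter windows, and a match with at most 1 mismatch in 1.09%. With at most 1 mismatch, Ccng1 and Bax also held the element, and with at most 2 (10.1% of all windows) Gadd45a did. The 3 best matches are given below from 5′ to 3′ on the gene's own strand, with the 10-base units in capitals. They were at chr17:29090729-29091028 (plus strand) for Cdkn1a, chr11:40755237-40755536 (minus strand) for Ccng1 and chr7:45466849-45467148 (minus strand) for Bax.
Cdkn1a: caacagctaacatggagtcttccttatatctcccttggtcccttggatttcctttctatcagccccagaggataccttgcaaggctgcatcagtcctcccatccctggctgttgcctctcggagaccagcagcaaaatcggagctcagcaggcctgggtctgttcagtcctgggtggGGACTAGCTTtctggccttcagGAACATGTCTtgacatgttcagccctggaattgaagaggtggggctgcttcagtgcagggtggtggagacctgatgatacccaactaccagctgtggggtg
Ccng1: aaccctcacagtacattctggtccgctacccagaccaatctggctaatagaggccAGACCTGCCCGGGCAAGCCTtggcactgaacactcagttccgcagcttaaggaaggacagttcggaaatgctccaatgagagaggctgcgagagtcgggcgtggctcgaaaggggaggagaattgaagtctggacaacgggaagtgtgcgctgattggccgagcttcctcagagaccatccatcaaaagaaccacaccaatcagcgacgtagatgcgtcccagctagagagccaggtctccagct
Bax: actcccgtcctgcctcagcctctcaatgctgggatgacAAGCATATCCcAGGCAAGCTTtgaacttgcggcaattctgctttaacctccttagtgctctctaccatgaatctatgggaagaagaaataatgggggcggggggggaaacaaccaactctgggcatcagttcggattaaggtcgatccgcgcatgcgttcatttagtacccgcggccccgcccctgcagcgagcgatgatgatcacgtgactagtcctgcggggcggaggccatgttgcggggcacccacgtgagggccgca
Relative to the RefSeq start, the first unit began at position -73 in the printed Cdkn1a window, with 12 bases between the units. It began at -195 in Ccng1 with no spacer, and at -212 in Bax with a spacer of 1 base. In the printed Cdkn1a window the second unit is followed directly by tgacatgttc, which departs from the consensus at its first base only. These 2 adjacent units thus form a further match with 1 mismatch and no spacer. It is not in capitals because only the pair with the fewest mismatches was marked. Cdkn1a had a second window, at another RefSeq start (chr17:29093519-29093818, plus strand), which held no match with at most 2 mismatches. A match in letters is a description and does not show binding by p53.

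Other short motifs were searched in the same 12 windows on both strands. The composite C/EBP-ATF element, a sequence bound by ATF4 with C/EBP partners, was searched only in the form TGATGNAAT. That form was in no window of these genes (0.965% of all windows), but variants of it would be missed. For example, the Gadd45g window holds tttgcatca, which on the other strand departs from the searched form at the last base only. The cyclic AMP element TGACGTCA was likewise in no window of these genes (1.79%). Its shorter core TGACG was found in Mdm2 and Bbc3 (20.8% of all windows). The GC box GGGCGG was in 9 windows of 7 genes (35.7%), the TATA sequence TATAAA in Gadd45b and Gadd45g (13.6%), and the E box CACGTG in Bax, Bbc3, Gadd45b and Gadd45g (7.15%). Overlaps between motifs were not removed, so TGACG would also be counted inside TGACGTCA.

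Gadd45g (chr13:51846678-51848468, plus strand) was the second gene to rise in both knockouts. It stood at 9.49 FPKM (4.45 to 14.5) in WT PBS, 7.62 (3.60 to 11.6) in WT ASNase, 5.80 (2.41 to 9.19) in Gcn2-/- PBS, 126 (70.2 to 181) in Gcn2-/- ASNase, 19.9 (10.8 to 28.9) in Atf4-/- PBS and 89.7 (47.0 to 132) in Atf4-/- ASNase. Both ASNase-treated knockouts lay above the other 4 groups and overlapped each other. The rise was 21.6-fold in Gcn2-/- (log2 4.41 ± 1.04, number 11 of 9218) and 4.51-fold in Atf4-/- (log2 2.17 ± 0.95, number 201 of 9485). The smaller fold in Atf4-/- went with a higher PBS level, 3.42-fold that of Gcn2-/- PBS.

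Other measures moved with the rises of Cdkn1a and Gadd45g. The 2 groups with the highest levels of both genes, Gcn2-/- ASNase and Atf4-/- ASNase, were also those with the lowest hepatocyte and B cell marker sums given above, and with the lowest erythroid sums (4 of 5 markers found), at 7.77 and 3.93 FPKM against 56.5 to 94.8 elsewhere. Within the hepatocyte list, Ttr, Apoa1 and Cyp2e1 carried the lower sum of Gcn2-/- ASNase, while Cps1 (754 FPKM under PBS and 779 under ASNase) and Pck1 (1074 and 933) were near their PBS levels, and all 5 were below PBS in Atf4-/- ASNase. Kupffer and myeloid markers summed to 183 FPKM under PBS and 214 under ASNase in Gcn2-/-, where Lyz2 went from 54.1 to 133.8 FPKM but Clec4f from 67.3 to 15.9 and the list median from 46.6 to 15.9. In Atf4-/- their sum was 324 under PBS and 121 under ASNase, with all 5 markers lower. Their part in the result was not tested.

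Gadd45a, on the minus strand of chromosome 6 (chr6:67035096-67037457), rose in Atf4-/- alone among the 3 strains. Its levels were 1.79 FPKM (0.30 to 3.28) in WT PBS, 5.64 (2.17 to 9.11) in WT ASNase, 7.33 (2.98 to 11.7) in Gcn2-/- PBS, 2.57 (0.590 to 4.55) in Gcn2-/- ASNase, 3.58 (0.824 to 6.33) in Atf4-/- PBS and 60.0 (25.7 to 94.4) in Atf4-/- ASNase. The 5 lower groups overlapped their neighbours, and only Atf4-/- ASNase stood apart. The rise there was 16.8-fold (log2 4.03 ± 1.36, number 48 of 9485), with 4.05-fold between the nearest bounds. In WT the log2 difference of 1.60 ± 1.43 was past the limit of 1.5 with overlapping bounds, and in Gcn2-/- it was -1.48 ± 1.36.

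Gadd45a is overlapped on the opposite strand by E230016M11Rik, a processed transcript without a coding sequence at chr6:67036599-67080654 (plus strand). The table gave Gadd45a a locus that ran to the end of this second gene. The library kit named in the study's methods does not keep strand, so reads from the shared stretch cannot be told apart. E230016M11Rik had 1.04, 3.07, 3.08, 1.40, 2.33 and 21.2 FPKM in WT PBS, WT ASNase, Gcn2-/- PBS, Gcn2-/- ASNase, Atf4-/- PBS and Atf4-/- ASNase. It was below Gadd45a in every group, and its highest value was in the group where Gadd45a was highest.

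**Figure D3:**
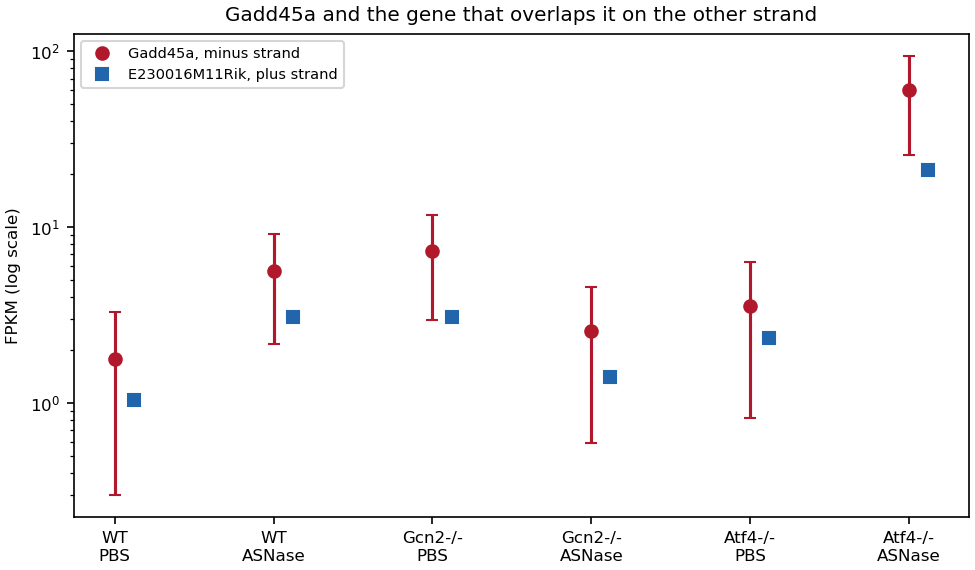
FPKM (vertical axis, log scale) of Gadd45a (circles with Cuffdiff bounds) and of the gene overlapping it on the opposite strand, E230016M11Rik (squares), in the 6 groups. Both were highest in Atf4-/- ASNase, at 60.0 and 21.2 FPKM.

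Gadd45b (chr10:80930073-80932204, plus strand) differed from both relatives in being called nowhere. It was highest in Gcn2-/- ASNase at 7.06 FPKM (3.20 to 10.9), where the log2 difference from PBS (2.39 FPKM) was 1.53 ± 1.20 with overlapping bounds. The other 4 groups lay between 1.72 FPKM in WT PBS and 3.44 in Atf4-/- ASNase, and all neighbours in the order overlapped. The highest value of Gadd45a was in Atf4-/- ASNase, and those of Gadd45b and Gadd45g were in Gcn2-/- ASNase. Only that of Gadd45a was separate from all other groups. The bounds of Gadd45b and of Gadd45g overlapped between Gcn2-/- ASNase and Atf4-/- ASNase.

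Trp53inp1 (chr4:11156431-11174379, plus strand), which encodes a p53-induced nuclear protein with roles in apoptosis and autophagy, rose in Atf4-/-. It stood at 17.5 FPKM (9.10 to 26.0) in WT PBS, 27.3 (14.2 to 40.5) in WT ASNase, 11.8 (6.46 to 17.1) in Gcn2-/- PBS, 28.6 (13.3 to 43.9) in Gcn2-/- ASNase, 25.2 (11.9 to 38.4) in Atf4-/- PBS and 109.7 (49.5 to 170.0) in Atf4-/- ASNase. Only Atf4-/- ASNase was separate from its neighbour in the order. The rise was 4.36-fold (log2 2.12 ± 1.1, number 215 of 9485), but the nearest bounds differed only 1.29-fold. The log2 differences in WT (0.64 ± 0.98) and Gcn2-/- (1.27 ± 1.0) were not called. The pancreatic markers Pnlip (39.3 FPKM), Prss2 (29.8) and Cpa1 (16.2) were also highest in Atf4-/- ASNase, and in Gcn2-/- ASNase all 3 were listed at 0. Their part in the values of Trp53inp1 and Gadd45a was not tested.

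Among the proapoptotic genes, Bax (chr7:45461697-45466898, minus strand), whose product permeabilizes the outer mitochondrial membrane, had its highest values in the ASNase-treated knockouts. It stood at 19.9 FPKM (11 to 28.8) in WT PBS, 16.5 (8.89 to 24.1) in WT ASNase, 19.7 (10.9 to 28.5) in Gcn2-/- PBS, 40.9 (23.0 to 58.8) in Gcn2-/- ASNase, 18.0 (9.70 to 26.2) in Atf4-/- PBS and 44.5 (25.6 to 63.5) in Atf4-/- ASNase. The 4 lower groups lay within 16.5 to 19.9 FPKM. On the log2 scale, ASNase exceeded PBS by 1.05 ± 0.90 in Gcn2-/-, and by 1.30 ± 0.90 in Atf4-/-. Both differences passed their errors but were not called. An annotated gene on the same strand, Gm45808, overlaps Bax and had no value in the table.

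Bbc3 (chr7:16308393-16318205, plus strand), which encodes the BH3-only protein PUMA, was the member whose values went most often against the others. It was lowest in Gcn2-/- ASNase at 2.69 FPKM (0.661 to 4.72) and highest in Gcn2-/- PBS at 6.77 (2.57 to 11), with 5.20 and 3.03 in WT PBS and WT ASNase and 4.12 and 5.0 in Atf4-/- PBS and Atf4-/- ASNase. Every neighbouring pair overlapped, and the log2 differences with ASNase were -0.76 ± 1.35 in WT, -1.30 ± 1.37 in Gcn2-/- and 0.27 ± 1.32 in Atf4-/-. None was called.

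Phlda3 (chr1:135766119-135769136, plus strand), a p53-induced repressor of AKT, was low in all groups. The PBS values were 2.21 FPKM in WT, 1.09 in Gcn2-/- and 0.878 in Atf4-/-, and the ASNase values were 3.84, 3.52 and 4.69. Its bounds lay 70.6% to 93.7% of the value away, in every group the widest of the 10 genes, and the log2 differences, 1.61 ± 1.79 for Gcn2-/- and 2.29 ± 1.54 for Atf4-/-, passed the limit of 1.5 with overlapping bounds and were not called.

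The genes of the feedback loop varied least. Mdm2 (chr10:117688875-117710758, minus strand) had 11.1, 10.5 and 12.1 FPKM under PBS in WT, Gcn2-/- and Atf4-/- and 13.9, 17.2 and 19.7 under ASNase, a 1.89-fold range with all bounds overlapping. Ccng1 (chr11:40748552-40755311, minus strand), which encodes cyclin G1, a p53 target tied to the Mdm2 loop, had 16.6, 13.2 and 12.2 FPKM under PBS and 17.4, 22.8 and 24.9 under ASNase, a 2.05-fold range. The order of groups was the same for Ccng1 and Cdkn1a, although neighbouring levels of Ccng1 all overlapped.

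**Figure D4:**
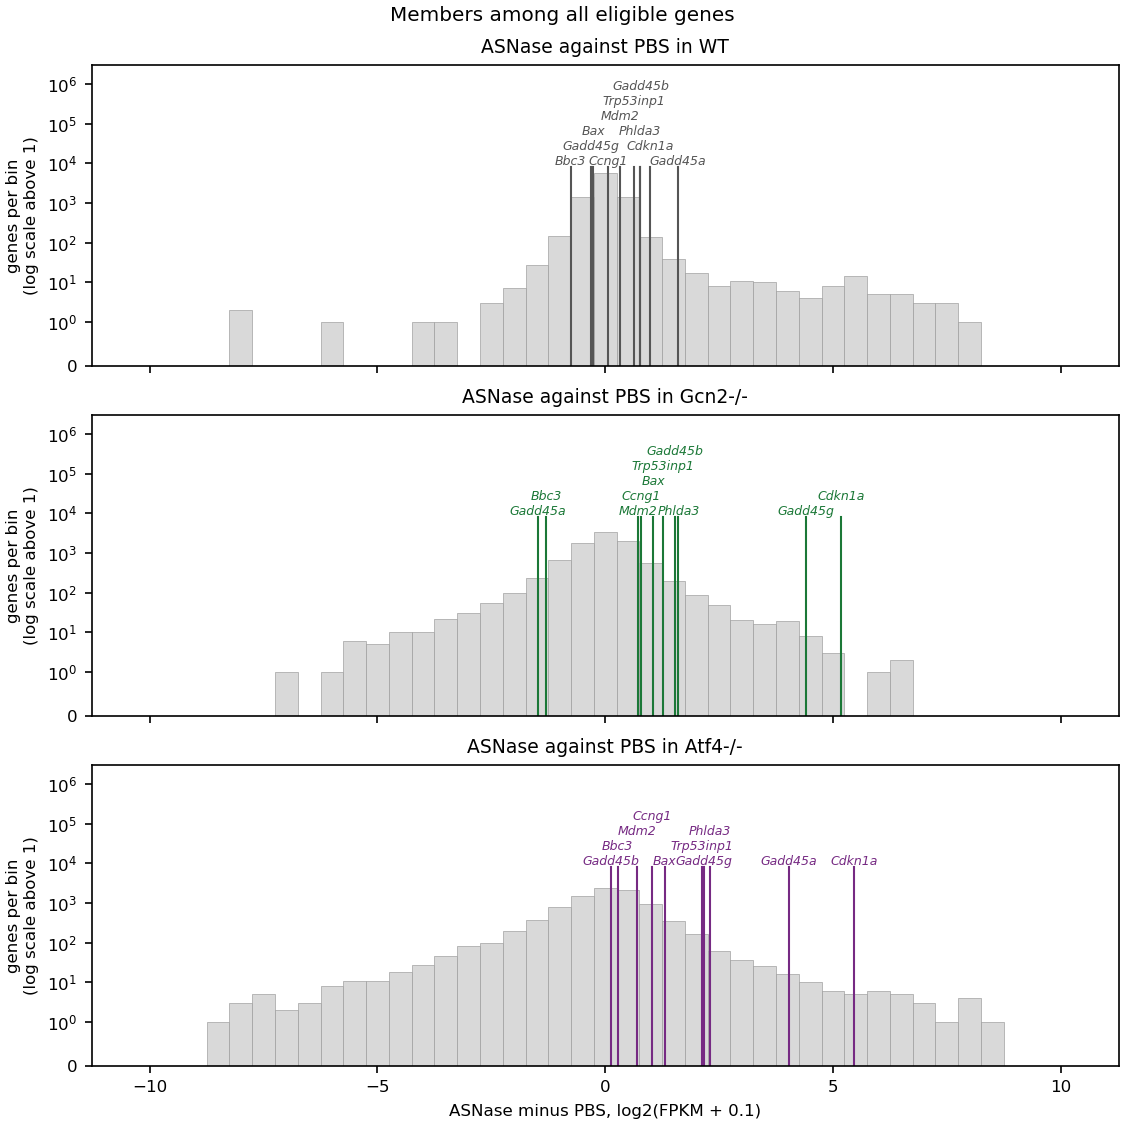
Number of eligible genes (vertical axis, log scale above 1) by ASNase minus PBS on the log2(FPKM + 0.1) scale (horizontal axis, bins 0.5 wide) in WT, Gcn2-/- and Atf4-/-, with vertical lines at the 10 named genes. The lines lay within -0.76 and 1.60 in WT and reached 5.17 in Gcn2-/- and 5.46 in Atf4-/-.

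The difference of the ASNase response between strains was then set against the combined error of the 4 values behind it. Against WT, the response in Gcn2-/- was higher by more than its error for Gadd45g (4.72 ± 1.49), Cdkn1a (4.19 ± 1.69) and Bax (1.32 ± 1.29) and lower for Gadd45a (-3.08 ± 1.98). In Atf4-/- it was higher for Cdkn1a (4.48 ± 1.63), Gadd45g (2.48 ± 1.43), Gadd45a (2.43 ± 1.97), Bax (1.57 ± 1.29) and Trp53inp1 (1.48 ± 1.47), and lower by more than its error for none. The margins for Bax and Trp53inp1 were small. Between the knockouts, Gadd45a responded more in Atf4-/- than in Gcn2-/- (5.51 ± 1.92) and Gadd45g less (-2.24 ± 1.41), and the other 8 genes differed by less than their errors. Both comparisons with WT use the same WT values.

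The strains were also compared within each treatment. Under PBS none of the 7 eligible genes was called between Gcn2-/- and WT (0.392% of all 8920 eligible genes called higher and 0.65% lower) and none of 8 between Atf4-/- and WT (0.354% of 9039 higher and 0.763% lower). Gadd45a came nearest in Gcn2-/-, at a log2 difference of 1.98 ± 1.42 with overlapping bounds. Between Atf4-/- and Gcn2-/- under PBS, 1 of 8 eligible genes was called, Gadd45g at 19.9 against 5.80 FPKM (log2 1.76 ± 1.06), beside 0.544% of 9015 genes called higher and 0.433% lower. Cdkn1a and Phlda3 did not exceed 3 FPKM in any PBS group and were not eligible there.

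Under ASNase, 2 of 10 genes were higher in Gcn2-/- than in WT, namely Gadd45g (16.5-fold, log2 4.02 ± 0.98) and Cdkn1a (9.89-fold, log2 3.28 ± 1.01), beside 1.83% of 9423 genes called higher and 2.59% lower. In Atf4-/- against WT, 4 of 10 were higher, beside 2.59% of 9577 genes called higher and 5.66% lower. They were Gadd45g (11.8-fold, log2 3.54 ± 1.02), Gadd45a (10.6-fold, log2 3.39 ± 1.20), Cdkn1a (10.5-fold, log2 3.36 ± 0.98) and Trp53inp1 (4.01-fold, log2 2.0 ± 1.05). The bounds of Bax were also separate in that comparison, at 2.70-fold (2.87% of all genes separate and higher), but the log2 difference of 1.43 ± 0.90 was below the limit. Between the knockouts under ASNase, 2 of 10 were called, both higher in Atf4-/- and beside 0.898% of 9355 genes called higher and 2.29% lower. Gadd45a differed 23.4-fold (log2 4.49 ± 1.35) and Trp53inp1 3.84-fold (log2 1.94 ± 1.1). Cdkn1a, at 45.2 and 42.6 FPKM, gave a log2 difference of 0.09 ± 0.94. These comparisons share their ASNase-treated groups with one another and with those above, so the counts do not add up as separate evidence.

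Likeness between members was described by Pearson's r of log2(FPKM + 0.1) over the 6 group values, which share libraries, treatment and strain. Cdkn1a was most like Ccng1 (r = 0.97), Mdm2 (0.95) and Bax (0.91), and less like Gadd45a (0.45). The size of a change does not enter r. Cdkn1a had a 48.7-fold range, against 2.05-fold for Ccng1, 1.89-fold for Mdm2 and 2.70-fold for Bax. Neighbouring levels of Ccng1, Mdm2 and Bax all overlapped, so these r values rest on differences that were not resolved. Bax and Gadd45g gave 0.92, and Gadd45a and Gadd45b 0.06. For Bbc3, r was negative with 8 of the 9 other genes, reaching -0.72 with Gadd45b. Of the 3 genes most like Cdkn1a, Ccng1 and Bax had a window printed above, and Mdm2 had no match with at most 2 mismatches. For Mdm2 only 1 window was searched, so elements elsewhere in the gene would be missed. A link between the motif and likeness was not tested.

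For the GADD45 genes, Cdkn1a and Trp53inp1, the 3 genes with the most similar profile over the 6 groups were taken from 9733 genes, by the smallest root mean square difference of log2 values after subtracting each gene's mean. Cdkn1a was nearest to Mmp7 (matrilysin; 0.75), Tnfaip3 (the NF-κB inhibitor A20; 0.75) and Cxcl2 (a neutrophil chemokine; 0.84). Outside the ASNase-treated knockouts, Mmp7 was at most 0.189 FPKM and Cxcl2 at most 0.138. These values are near the added 0.1, so the distances of Mmp7 and Cxcl2 depend on it. Tnfaip3 had 0.653 and 12.8 FPKM in Gcn2-/- PBS and ASNase and 0.893 and 19.7 in Atf4-/-. Gadd45g was nearest to Itgam (CD11b; 0.35), Isyna1 (inositol phosphate synthase; 0.36) and Il1r1 (interleukin 1 receptor; 0.37), the last at 6.88 and 78.0 FPKM in Gcn2-/- PBS and ASNase. Gadd45a was nearest to AY036118 (0.26), to the overlapping E230016M11Rik (0.31) and to Lepr (the leptin receptor; 0.35). Lepr had 1.98 FPKM in WT PBS, 9.38 in Gcn2-/- PBS and 63.0 in Atf4-/- ASNase. Gadd45b was nearest to Slc1a5 (a glutamine transporter; 0.18), Hist1h4k (0.20) and Tmem87b (0.22), although all neighbouring levels of Gadd45b overlapped. Trp53inp1 was nearest to Cd63 (a lysosomal tetraspanin; 0.25), Hdc (histidine decarboxylase; 0.27) and Inhbb (inhibin beta B; 0.31). The distance also depends on how widely a profile spreads over the groups, so it does not rank likeness between members.

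The wider pathway was read from lists taken as a whole, for ASNase against PBS. The shares of all eligible genes to set beside these counts are 0.76% higher and 0.121% lower in WT. They are 1.56% and 2.13% in Gcn2-/-, and 2.74% and 4.63% in Atf4-/-. Of 19 genes for p53 and its regulators, none of 12 eligible genes was called in WT, none of 11 in Gcn2-/- and 1 of 13 in Atf4-/-. The 1 was Rpl5, a ribosomal protein that can bind MDM2, which rose from 254.5 to 932 FPKM (log2 1.87 ± 1.07). Trp53 itself had 8.87, 8.26 and 8.37 FPKM under PBS in WT, Gcn2-/- and Atf4-/- and 9.82, 14.4 and 17.2 under ASNase, with log2 differences of 0.15, 0.79 and 1.03 and overlapping bounds. Mdm4, which restrains p53 together with MDM2, lay between 4.99 and 8.69 FPKM.

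Of 34 further p53 targets, 33 were in the table, and most showed little difference with ASNase. The calls were 1 of 22 eligible genes in WT, 1 of 19 in Gcn2-/- and 2 of 20 in Atf4-/-, all higher, with list medians of -0.06, 0.08 and -0.0031. Btg2, an antiproliferative p53 target, rose from 7.55 to 36.1 FPKM in Gcn2-/- (log2 2.24 ± 0.88) and from 4.89 to 32.5 in Atf4-/- (log2 2.71 ± 0.93), with 5.12 and 4.86 in WT. Aen, an exonuclease induced in p53-dependent apoptosis, rose from 9.47 to 29.4 FPKM in Atf4-/- (log2 1.62 ± 0.89). Sfn, the 14-3-3σ gene, rose from 0.487 to 4.42 FPKM in WT. The medians of this longer list were thus near 0 in all 3 strains, unlike those of the 10 genes. Both sets were chosen with earlier results of these data known, so this contrast is a description and no test.

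**Figure D5:**
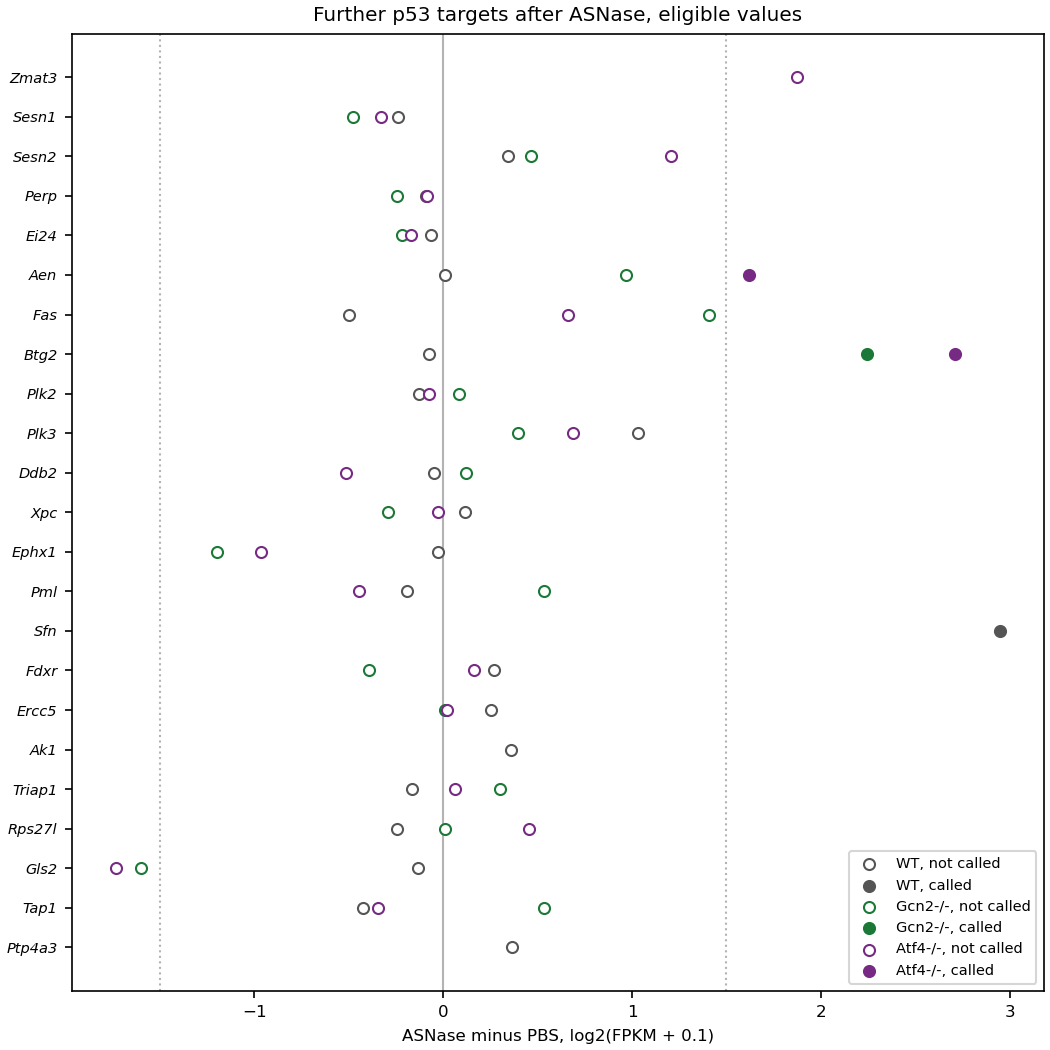
ASNase minus PBS on the log2(FPKM + 0.1) scale (horizontal axis) for the further p53 targets with an eligible value in WT (grey), Gcn2-/- (green) or Atf4-/- (purple), with filled points for called differences and dotted lines at the limits of 1.5. Most points lay near 0, and the filled ones belong to Btg2 in both knockouts, Aen in Atf4-/- and Sfn in WT.

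Other arrest genes and partners gave few calls. Of 19 other growth arrest genes, none of 13 eligible was called in WT, and 1 rose and 1 fell in each knockout. Ddit4, an mTORC1 inhibitor induced by several stresses, rose from 2.19 to 44.0 FPKM in Gcn2-/- (log2 4.27 ± 1.09) and from 4.96 to 53.3 in Atf4-/- (log2 3.40 ± 0.97). Gas1, a growth arrest specific membrane protein, fell from 6.85 to 2.01 FPKM in Gcn2-/- and from 5.86 to 0.709 in Atf4-/-. No gene of the BCL2 family list (15 genes, 9 eligible in each strain, Bax and Bbc3 not included) was called in any of the 3 strains. Of the kinases that GADD45 proteins bind or activate and their targets (11 genes), 1 of 8 eligible was called in Atf4-/-, Mapk13 (p38δ), at 0.278 and 3.89 FPKM, and none in WT or Gcn2-/-.

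Of 29 cyclins, cyclin-dependent kinases and cell division genes, which p21 acts on or which mark dividing cells, only 8 were eligible in each strain. The 1 call was Ccnd1 (cyclin D1), which fell from 20.1 to 1.13 FPKM in Atf4-/- (log2 -4.04 ± 1.49), and it stood at 25.7 and 8.47 in Gcn2-/- and at 24.7 and 15.4 in WT. Of 15 stress transcription factors and related genes, 1 of 13 eligible rose in WT, 2 of 14 in Gcn2-/- and 5 of 15 in Atf4-/-, with list medians of 0.46, 0.39 and 1.41. Trib3, a pseudokinase target of ATF4 and CHOP, rose in WT from 5.46 to 19.5 FPKM. Cebpd and Jun rose in Gcn2-/-, from 3.35 to 25.6 and from 5.67 to 21.4 FPKM. In Atf4-/-, the 4 largest rises were those of Trib3 (3.63 to 149.6 FPKM), Atf3 (0.896 to 13.3), Myc (1.75 to 13.8) and Cebpd (6.80 to 37.1).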

How the data were processed

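Liver RNA of 18 mice was measured by RNA-seq. The authors prepared polyadenylated RNA libraries with the TruSeq v2 kit, mapped the reads to mm10 with TopHat and estimated 1 FPKM value per gene and group with Cuffdiff from the 3 libraries of each group together. The deposited interval bounds of each value were used on the FPKM scale. The depth of each library was not part of the table used here, so precision rests on these intervals. Values whose status was not OK (160 values) were left out.

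From these values, log2(FPKM + 0.1) differences, their errors and calls were computed over all genes for 9 comparisons with Python 3.11.15 and pandas 2.3.3. The limits of 3 FPKM and 1.5 on the log2 scale were those of the study's methods, and separate intervals took the place of its q value. Named genes were the 10 members in every comparison, Trp53 and Mdm4, up to 4 called genes per list and ASNase comparison, and the 3 nearest profiles of 5 members. Gene coordinates came from GENCODE (GRCm38) and promoters from RefSeq. No comparison of GADD45 protein sequences was made. The members and gene lists were chosen with earlier results of these data known.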

Additional observations from a re-analysis of the deposited data

How the results depend on the processing

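All log2 differences of the 10 genes kept their sign, and moved by less than their error, with pseudocounts of 1 and 0.01 and after median-ratio scaling (factors 0.977 to 1.03), and no result reversed. Without the FPKM minimum, genes called in all numbered 124 in WT after ASNase (80 as reported), 144 for Gcn2-/- against WT under PBS (93) and 153 for Atf4-/- against WT under PBS (101). With the combined error in place of separate intervals, Gadd45a was called in WT after ASNase (1 of the 10 genes, 0 as reported) and for Gcn2-/- against WT under PBS (1 and 0), Gadd45b in Gcn2-/- after ASNase (3 and 2) and Phlda3 in Atf4-/- after ASNase (5 and 4). By that rule genes called numbered 100 in WT after ASNase (80), 987 in Atf4-/- after ASNase (699), 133 for Gcn2-/- against WT under PBS (93), 517 in Gcn2-/- after ASNase (340) and 467 for Atf4-/- against Gcn2-/- under ASNase (298). With no condition on intervals, members called were 1 in WT after ASNase, 4 in Gcn2-/- after ASNase (2 as reported) and 1 for Gcn2-/- against WT under PBS. Genes called then numbered 134 in WT, 607 in Gcn2-/- and 1160 in Atf4-/- after ASNase (699 as reported), 181 and 180 for Gcn2-/- and Atf4-/- against WT under PBS, 723 (416) and 1276 (790) under ASNase, and 170 (88) and 581 for Atf4-/- against Gcn2-/- under PBS and ASNase. The other 134 counts stayed within 1.5 times the reported one. No paired analysis was possible because the table holds only values pooled over the 3 mice of a group, and for the same reason no mouse could be left out. Among the 10 genes, overlapping intervals alone kept Gadd45a, Gadd45b and Phlda3 from being called in the comparisons where they passed 1.5.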
